A study of Homo sapiens with 72 samples.

Results

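Glutathione synthesis and cystine import were followed through 10 genes, taken by symbol from the pathway: the glutamate-cysteine ligase subunits GCLC and GCLM, the synthetase GSS, the reductase GSR, the glutaredoxin GLRX, the cystine importer subunits SLC7A11 and SLC3A2, and the breakdown enzymes CHAC1, CHAC2 and GGCT. All 10 were among the 23170 genes counted, and all 10 passed the filter on low counts that left 14264 genes for testing. The samples came from 1 kind of primary cell, wildtype normal human dermal fibroblasts, kept in a 384-well plate and exposed for 24 hours to the solvent DMSO or to omaveloxolone. This compound, a semi-synthetic triterpenoid, stabilises the transcription factor NRF2 by binding its repressor KEAP1. DMSO was given to 32 wells, and each of 10 doses of the compound to 4 wells: 0.0005, 0.002, 0.005, 0.014, 0.04, 0.12, 0.37, 1.11, 3.33 and 10 µM. RNA was counted by DRUG-seq, which reads the 3′ ends of polyadenylated RNA from lysed wells. The titles number the wells of a group as biological replicates, but no label ties them to separate cultures or donors, so p-values measure the spread between wells, which may be technical.

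Glutathione is made of glutamate, cysteine and glycine, and it serves cells as a reductant of peroxides and as a conjugation partner of electrophiles. Cysteine is usually the scarce building block in culture, where it enters as cystine in exchange for glutamate. NRF2 is known to act on many of these genes through antioxidant response elements in their regulatory DNA, and CHAC1 is a textbook target of the stress factors ATF4 and CHOP (DDIT3).

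RefSeq promoter windows (GRCh38.p14, 250 bases before to 50 after a start site) were at hand for 6 of the 10 genes, in 9 windows, and were searched on both strands for the antioxidant response element core TGACNNNGC and for the core of the CHOP composite site TGATGNAA. The first is in 13.3% and the second in 3.62% of 35116 windows of that length, and no matches of the 2 motifs overlapped in these genes. GSS, GSR, SLC7A11 and GGCT had no window. The sequences below are those of both ligase subunits and of the SLC3A2 and CHAC2 starts, members of the pairs compared within wells below. Whether the motifs bear on the responses was not tested, and sequence farther than 250 bases upstream was not searched. They run 5′ to 3′ on the gene's strand, with the motif in capitals, and stop where most of the rest of a window lies in an annotated exon. GCLM (chr1:93909446-93909680, minus strand) holds GCTTAGTCA, the reverse complement of the first motif, from -34 bases relative to its start.
GCLM: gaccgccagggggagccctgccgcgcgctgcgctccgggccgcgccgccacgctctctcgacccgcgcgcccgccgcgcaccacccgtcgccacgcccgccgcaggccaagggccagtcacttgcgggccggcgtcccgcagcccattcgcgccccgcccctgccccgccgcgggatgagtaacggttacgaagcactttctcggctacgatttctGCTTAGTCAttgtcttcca
GCLC (chr6:53545130-53545351, minus strand) has neither motif in its window.
GCLC: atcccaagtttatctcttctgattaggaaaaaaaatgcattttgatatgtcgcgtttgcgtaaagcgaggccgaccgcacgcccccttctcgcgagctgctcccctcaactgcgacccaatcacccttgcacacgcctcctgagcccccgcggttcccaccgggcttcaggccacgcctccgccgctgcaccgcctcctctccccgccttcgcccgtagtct
SLC3A2 (chr11:62881449-62881680, plus strand) holds TGACTCAGC from -37 bases.
SLC3A2: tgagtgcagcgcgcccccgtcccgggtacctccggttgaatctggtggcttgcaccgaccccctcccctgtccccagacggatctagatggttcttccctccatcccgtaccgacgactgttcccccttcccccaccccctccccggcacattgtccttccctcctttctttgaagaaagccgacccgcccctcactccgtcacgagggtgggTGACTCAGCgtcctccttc
CHAC2 (chr2:53767533-53767782, plus strand) has neither motif.
CHAC2: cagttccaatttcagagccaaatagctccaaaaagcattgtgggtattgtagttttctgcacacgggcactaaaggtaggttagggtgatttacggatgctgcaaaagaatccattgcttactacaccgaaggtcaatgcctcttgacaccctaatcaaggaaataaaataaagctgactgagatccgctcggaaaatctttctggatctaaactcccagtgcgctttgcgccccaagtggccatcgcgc
The composite core was matched as TTGCATCA from -209 bases in CHAC1 (chr15:40953262-40953269) and as TTACATCA 37 bases after the same SLC3A2 start (chr11:62881736-62881743), and is shown with its flanks. The CHAC1 match lies within an exon of CHAC1 in GENCODE 29.
CHAC1 site: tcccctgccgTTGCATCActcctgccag
SLC3A2 site: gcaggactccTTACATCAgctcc
The GLRX window held neither motif, nor did the other windows of SLC3A2 and CHAC2. All 250 bases before the start in the GLRX window lie within an exon of GLRX in GENCODE 29. A match is a run of letters and not a measured binding site.

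Depth changed along the dose series. DMSO wells held 4910842 to 8685535 counts, the doses up to 0.12 µM stayed between 4173820 and 8750002, and wells at 0.37 µM held 9311006 to 10386930, a mean 1.48-fold that of DMSO. The mean fell 4.25-fold below DMSO at 1.11 µM, 39.2-fold at 3.33 µM and 216-fold at 10 µM, and here fewer cells and less RNA per cell cannot be told apart. The summed level of 10 fibroblast markers, all of them detected, was 67499 to 81701 CPM, TMM-scaled counts relative to the library total, in DMSO and 33763 to 37945 CPM at 0.37 µM, lower in every well, and returned to 66765 to 79402 CPM at 1.11 µM. The 5 immune markers counted of 6 summed to 93.2 to 184 CPM in DMSO and to 205 to 410 CPM at 1.11 µM, with PTPRC, LYZ and TYROBP at 0 there. The 3 keratinocyte markers counted of 6 summed to 344 to 587 CPM in DMSO and 300 to 354 CPM at 1.11 µM, while melanocyte (4 of 6 counted) and endothelial (4 of 5 counted) markers reached at most 3.02 and 5.36 CPM in DMSO. What part depth and marker levels have in the changes below was not tested.

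At doses up to 0.005 µM none of the 10 genes was called, while 2 rose at 0.014 µM, 7 at 0.37 µM and 5 at 1.11 µM, and none was called lower up to that dose. A gene is called where its adjusted p (edgeR quasi-likelihood test, Benjamini-Hochberg over all genes) is under 0.05. Called members were 0 at 0.0005, 0.002 and 0.005 µM by edgeR and by DESeq2, against 0.00701%, 0.0561% and 0.0771% of all genes (0.0631% higher at the last of these), while 0, 2 and 2 of them had an unadjusted p under 0.05 in edgeR. At 0.014 µM 2 of 10 rose, where 0.217% of all genes were called and 0.203% rose. At 0.04 µM 5 of 10 rose (0.792% of all genes called, 0.603% higher and 0.189% lower), and 5 of 10 did at 0.12 µM (2.33% called, 1.31% higher and 1.02% lower). At 0.37 µM 7 of 10 rose (24.8% called, 11.2% higher and 13.6% lower), against 5 of 10 at 1.11 µM (23.0% called, 9.76% higher and 13.2% lower). The median log2 change of the 10 genes against DMSO was 0.50, 1.11, 0.92, 2.72 and 0.78 at the 5 doses from 0.014 to 1.11 µM in turn, beside -0.03, -0.05, -0.07, -0.14 and -0.20 over all genes tested. DESeq2 size factors moved the median of all genes at 0.37 µM to 0.11 and the calls there from 1593 higher and 1940 lower to 2486 and 1438, and 7 members were called under either scaling. All of these comparisons use the same DMSO wells.

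**Figure D1:**
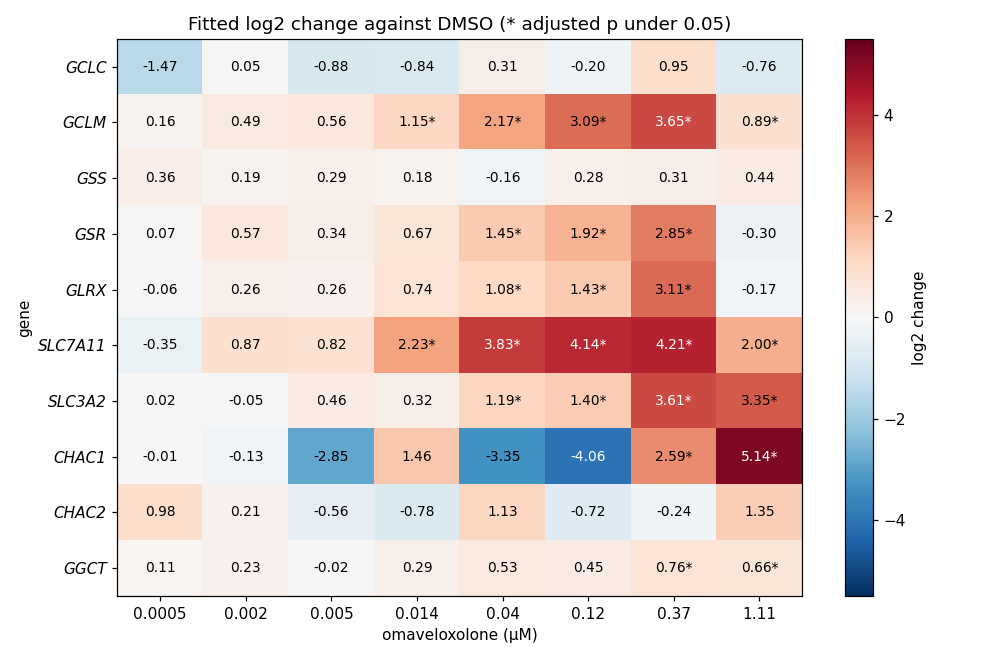
Fitted log2 change against the 32 DMSO wells for each of the 10 genes (rows) at the 8 doses up to 1.11 µM (columns), with red above and blue below DMSO and an asterisk at an adjusted p under 0.05. GCLM and SLC7A11 carry asterisks from 0.014 to 1.11 µM, CHAC1 only at 0.37 and 1.11 µM among these doses, and GCLC, GSS and CHAC2 none.

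Neighbouring doses were also compared. None of the 10 was called from 0.014 to 0.04 µM (0.00701% of all genes called in either direction) or from 0.04 to 0.12 µM (0.0140%), although 5 and 1 had an unadjusted p under 0.05 in edgeR, and DESeq2 called 0 at both steps. From 0.12 to 0.37 µM, SLC3A2, CHAC1 and GLRX rose (3 of 10, against 8.13% of all genes called, 2.52% higher and 5.60% lower). From 0.37 to 1.11 µM, GCLM, GSR, SLC7A11 and GLRX fell (4 of 10, against 25.4% called, 12.1% higher and 13.4% lower), and the other 6 were not called. With DESeq2 size factors the calls over all genes moved from 360 higher and 799 lower to 803 and 489 at the former step, and from 1720 and 1906 to 1437 and 2448 at the latter.

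GCLM encodes the modifier subunit of glutamate-cysteine ligase, which makes the rate-limiting step of synthesis more efficient (ENSG00000023909, GRCh38, GENCODE 29, chr1:93885205-93909456, minus strand). Its level in DMSO ran from 34.3 through a median of 75.8 to 119 CPM. The 4 wells, in the order of replicates 1 to 4 here and below, held 136, 209, 196 and 121 CPM at 0.014 µM, and 303, 362, 360 and 322 CPM at 0.04 µM. Every one of these wells lay above every DMSO well. At 0.12 µM the wells held 613, 792, 457 and 680 CPM, and at 0.37 µM 1031, 918, 819 and 979 CPM. The level at 0.37 µM was thus 937 ± 91.3 CPM (SD, n = 4) against 74.6 ± 19.9 CPM (SD, n = 32). GCLM rose 2.22-fold at 0.014 µM (log2 1.15, SE 0.23, adjusted p = 0.00315), 4.52-fold at 0.04 µM (adjusted p = 7.79e-13), 8.51-fold at 0.12 µM (5.96e-22 as adjusted p) and 12.6-fold at 0.37 µM (log2 3.65, SE 0.19, adjusted p = 2.53e-27). At 1.11 µM the wells spread to 227, 97.7, 41.2 and 186 CPM and overlapped DMSO, with a fold of 1.85 (adjusted p = 0.00456), 6.77-fold below 0.37 µM (adjusted p = 5.23e-09).

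By mean the order of GCLM was 0.37, 0.12, 0.04, 0.014, 1.11, 0.005, 0.002 and 0.0005 µM, DMSO, 3.33 and 10 µM. The wells of 0.37, 0.12, 0.04 and 0.014 µM did not overlap each other, while none of these neighbours differed by the test (adjusted p = 0.360, 1.0 and 1.0 from the highest step down). Each of these steps did pass in edgeR with only the wells of the comparison fitted (adjusted p = 0.0149, 0.0383 and 0.0320 in the same order). The step from 0.12 to 0.37 µM also passed the DESeq2 Wald test (adjusted p = 0.0277). From 0.014 µM downward each neighbour in the order overlapped the next. The call at 0.014 µM was lost against only the 4 DMSO wells that lie in plate rows K and L with the treated wells (the row-matched wells below), or against the 0.0005 µM wells (adjusted p = 1.0 in both), and without replicate 2 (adjusted p = 0.123) or replicate 3 (0.0639 as adjusted p). That at 1.11 µM was lost against either of these references (adjusted p = 0.367 and 0.163) and without replicate 1 (log2 0.54, adjusted p = 0.175) or replicate 4 (log2 0.70, adjusted p = 0.0689). Over all 14 alternative settings the adjusted p ran from 3.49e-05 to 1.0 at 0.014 µM and from 0.000296 to 0.367 at 1.11 µM.

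**Figure D2:**
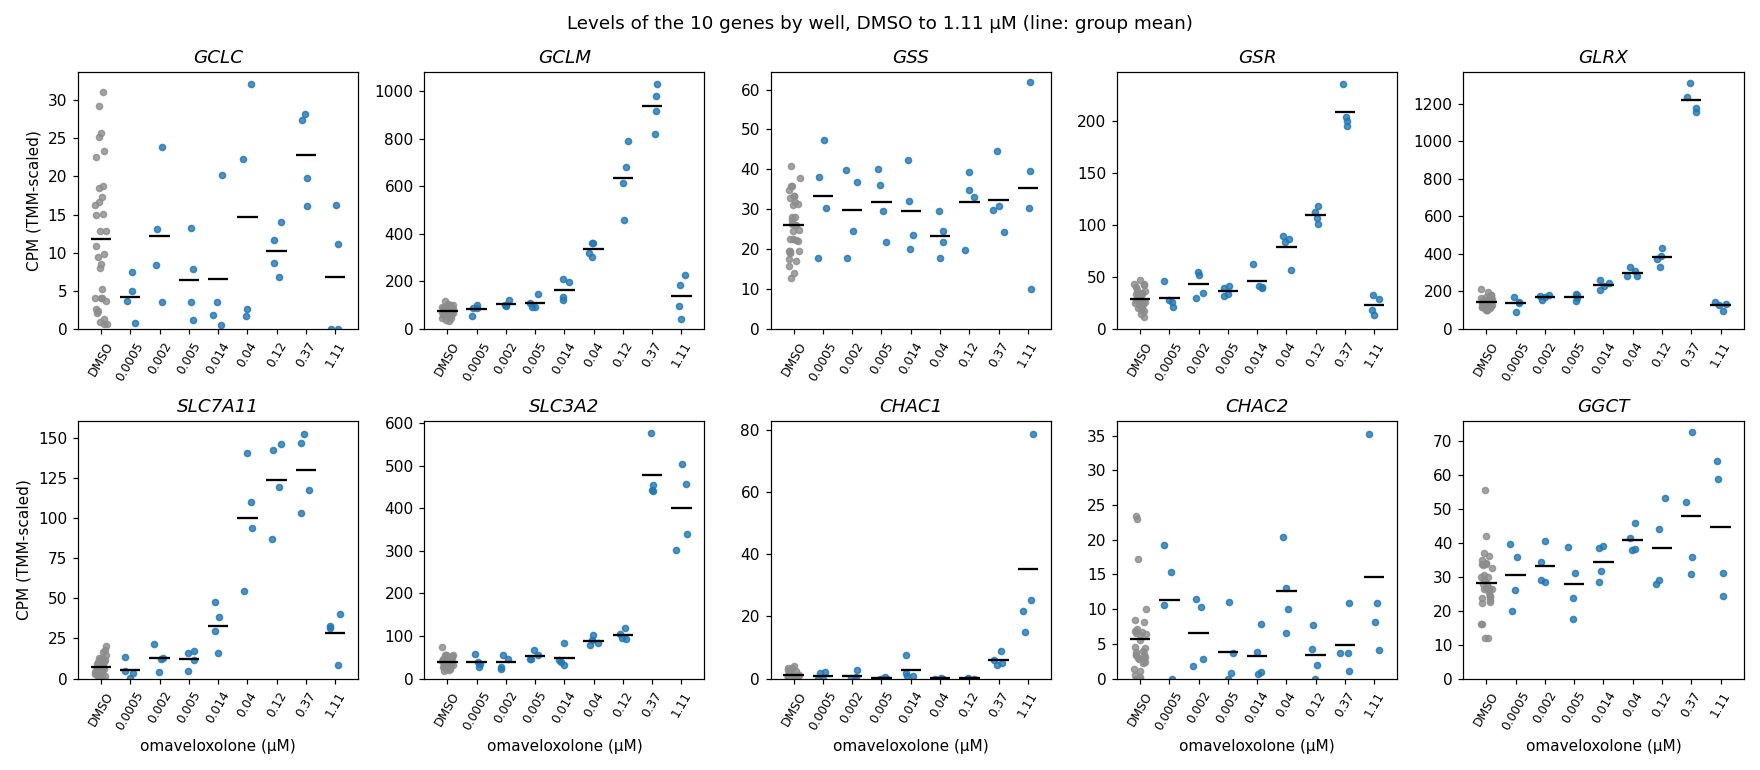
CPM after TMM scaling of each of the 10 genes in every well, DMSO in grey (32 wells) and the 8 doses up to 1.11 µM in blue (4 wells each), with the group mean as a line and a linear axis of its own from 0 in each panel. GCLM, GSR and GLRX climb to 937, 209 and 1222 CPM at 0.37 µM and drop at 1.11 µM, SLC3A2 stays at 401 CPM there, CHAC1 reaches its highest mean of 35.2 CPM at 1.11 µM, and GCLC, GSS and CHAC2 overlap the DMSO wells at each dose shown.

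GCLC, the catalytic subunit of the same ligase (ENSG00000001084, chr6:53497341-53616970, minus strand), was called at no dose. Its DMSO wells ran from 0.621 through a median of 10.4 to 31.1 CPM, from as few as 4 counts to 218 counts in a well. At 0.37 µM the wells held 19.8, 28.2, 16.1 and 27.3 CPM, all above the DMSO median and within the DMSO range. The log2 change there was 0.95 with an SE of 0.64 (1.93-fold, adjusted p = 0.298). Wells of a dose also differed widely from each other, as at 0.04 µM with 32.1, 1.66, 2.64 and 22.3 CPM. The level in DMSO was 11.8 ± 9.08 CPM (SD, n = 32), and the SE of the change at 0.37 µM compares with 0.19 for GCLM, so a change of the size seen for GCLM at 0.014 µM was not detectable in GCLC. By mean 0.37 µM came highest, followed by 0.04 µM, 0.002 µM, DMSO, 0.12, 1.11, 0.014, 0.005, 0.0005, 3.33 and 10 µM, and each neighbour down to 3.33 µM overlapped the next.

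The difference between the subunits was tested within wells, as log2 CPM of GCLM minus that of GCLC. It averaged 3.14 ± 1.55 in DMSO (SD, n = 32) and, from 0.014 to 1.11 µM in order of dose, 5.52 ± 1.92, 5.37 ± 2.15, 5.92 ± 0.65, 5.37 ± 0.34 and 5.68 ± 2.95 (SD, n = 4 each). The difference was larger than in DMSO at each of these doses, by 2.23 to 2.79 on the log2 scale. The least adjusted p was 0.00535 at 0.12 µM and the largest 0.0171 at 0.04 and 1.11 µM (exact two-sided permutation tests over 58905 splits, adjusted over the 15 tests of all 3 pairs). The wells at 0.37 µM were the tightest and those at 1.11 µM, where GCLC had 0 counts in 2 wells, the widest. At 0.014 and 1.11 µM the increases of 2.38 and 2.54 exceeded the log2 changes of GCLM itself, 1.15 and 0.89. They thus rest in part on low GCLC wells, with 28, 3, 150 and 8 counts at 0.014 µM and 0, 15, 0 and 24 at 1.11 µM. With a prior count of 0.5 in place of 2, the increase at 1.11 µM was 3.47. The test takes wells as exchangeable. At 0.014, 0.04 and 1.11 µM the 4 dose wells spread more than the 32 DMSO wells, so the p-values there may be too small. With only the 4 row-matched DMSO wells the differences were 2.20 to 2.76 and none passed (adjusted p = 0.257 to 0.273, exact permutation test over 70 splits). The SD was 2.38 among these 4 wells against 1.55 among all 32. The smallest unadjusted p that 70 splits allow is 0.0286. After adjustment over the 15 tests it passes only if most of them reach it, so these tests could hardly pass. With all DMSO wells kept, leaving out replicate 1 of the dose ended the call at 1.11 µM (difference 1.34), replicate 2 ended it at 0.014 and 0.04 µM (1.59 and 1.52), and replicate 3 at 0.04 and 1.11 µM (1.71 and 2.15).

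GSS, which adds glycine to complete glutathione (ENSG00000100983, chr20:34928433-34956027, minus strand), was called at no dose. DMSO wells ran from 12.8 through 26.1 to 40.8 CPM. From 0.0005 to 0.37 µM the means lay between 23.4 CPM at 0.04 µM and 33.4 CPM at 0.0005 µM, and all of them overlapped DMSO. At 0.37 µM the wells held 30.9, 24.3, 29.9 and 44.6 CPM, a log2 change of 0.31 with an SE of 0.33 (adjusted p = 0.539). At 1.11 µM they held 10.1, 39.5, 30.3 and 61.8 CPM, wider than DMSO on both sides (log2 0.44, SE 0.34, adjusted p = 0.344). No pair of neighbours in its order of means separated up to 1.11 µM.

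GSR, which returns oxidised glutathione to its reduced form with NADPH (ENSG00000104687, chr8:30678061-30727999, minus strand), followed the course of GCLM at smaller size. DMSO wells ran from 11.3 through 27.3 to 47.6 CPM. The wells held 40.7, 39.1, 62.3 and 41.9 CPM at 0.014 µM, 56.5, 89.4, 84.0 and 86.3 CPM at 0.04 µM, and 118, 112, 107 and 101 CPM at 0.12 µM. From 0.04 µM on, all wells up to 0.37 µM lay above all DMSO wells. At 0.37 µM they held 237, 196, 204 and 200 CPM. GSR rose 2.73-fold at 0.04 µM (adjusted p = 9.50e-07), 3.79-fold at 0.12 µM (adjusted p = 1.49e-11) and 7.23-fold at 0.37 µM (log2 2.85, SE 0.19, adjusted p = 1.23e-21). At 1.11 µM the wells held 13.9, 17.9, 32.8 and 29.2 CPM, all within the DMSO range, with a log2 change of -0.30 (SE 0.27, adjusted p = 0.412), and the step down from 0.37 µM was 8.91-fold (adjusted p = 3.04e-11).

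In the order of GSR means, 0.37, 0.12, 0.04, 0.014, 0.002, 0.005 and 0.0005 µM, DMSO, 1.11, 3.33 and 10 µM, wells of 0.37 and 0.12 µM did not overlap, nor did those of 0.12 and 0.04 µM, and the test called neither step (adjusted p = 0.0518 and 1.0). Lower neighbours overlapped. The step from 0.12 to 0.37 µM did pass with DESeq2 size factors (adjusted p = 0.00560) and the DESeq2 Wald test (0.000361 as adjusted p). It also passed in edgeR without the 3.33 and 10 µM wells (adjusted p = 0.0205). Against the row-matched DMSO wells the rise at 0.04 µM was not called (log2 1.16, adjusted p = 0.371, in a range of 4.02e-08 to 0.371 over 14 settings).

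GLRX encodes glutaredoxin, which uses glutathione to reduce mixed disulfides on proteins (ENSG00000173221, chr5:95751319-95823005, minus strand). DMSO wells ran from 102 through 135 to 211 CPM. At 0.014 µM the wells held 232, 210, 259 and 247 CPM, with 3 of 4 above every DMSO well. This 1.67-fold difference missed the threshold (adjusted p = 0.0519), and passed under 5 of 14 alternative settings, over a range of 2.60e-05 to 1.0. Among them were the DESeq2 Wald test (adjusted p = 5.89e-05) and edgeR without the 3.33 and 10 µM wells (adjusted p = 2.60e-05). The wells held 282, 308, 284 and 328 CPM at 0.04 µM, 375, 389, 333 and 430 CPM at 0.12 µM, and 1309, 1159, 1239 and 1180 CPM at 0.37 µM. All of these lay above DMSO, and the dose groups did not overlap each other.

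GLRX rose 2.12-fold at 0.04 µM (adjusted p = 1.95e-05), 2.70-fold at 0.12 µM (adjusted p = 2.01e-09) and 8.63-fold at 0.37 µM (log2 3.11, SE 0.15, adjusted p = 8.55e-29). Unlike the steps below it (adjusted p = 1.0 at both), the step from 0.12 to 0.37 µM was called, at 3.20-fold (adjusted p = 2.09e-06). At 1.11 µM the wells held 146, 134, 127 and 96.5 CPM, a mean of 126 ± 21.2 CPM (SD, n = 4) beside 142 ± 27.8 CPM in DMSO (log2 -0.17, SE 0.20, adjusted p = 0.564), and the fall from 0.37 µM was 9.70-fold (adjusted p = 2.16e-15). The order by mean was 0.37, 0.12, 0.04, 0.014, 0.002, 0.005 and 3.33 µM, DMSO, 0.0005, 1.11 and 10 µM, and neighbours from 0.002 µM down to 1.11 µM overlapped. Against the row-matched DMSO wells the calls at 0.04 µM (log2 0.85, adjusted p = 1.0) and 0.12 µM (log2 1.19, adjusted p = 0.140) were lost. Over the 14 settings the adjusted p ran from 3.13e-12 to 1.0 at 0.04 µM and from 5.26e-23 to 0.140 at 0.12 µM.

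SLC7A11 is the transport subunit of system xc-, which exchanges glutamate for cystine (ENSG00000151012, chr4:138164097-138242349, minus strand). It was low in DMSO, from 0 through 4.98 to 20.4 CPM, with 1 of 32 wells at 0 counts. At 0.014 µM the wells held 47.7, 38.1, 29.3 and 15.8 CPM, with 3 of 4 above every DMSO well. The wells held 93.7, 141, 110 and 54.7 CPM at 0.04 µM, 146, 87.0, 142 and 119 CPM at 0.12 µM, and 153, 103, 147 and 117 CPM at 0.37 µM. These 12 wells overlapped between doses and lay above all DMSO wells. SLC7A11 rose 4.68-fold at 0.014 µM (log2 2.23, SE 0.45, adjusted p = 0.00437), 14.2-fold at 0.04 µM (adjusted p = 4.64e-11), 17.6-fold at 0.12 µM (adjusted p = 9.75e-13) and 18.5-fold at 0.37 µM (log2 4.21, SE 0.40, adjusted p = 3.88e-14). Its level thus differed little between 0.12 and 0.37 µM, 124 ± 27.1 and 130 ± 23.6 CPM (SD, n = 4 each; log2 change 0.07, SE 0.71, adjusted p = 0.983).

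At 1.11 µM SLC7A11 held 32.5, 31.3, 40.3 and 8.16 CPM, 3.99-fold above DMSO (adjusted p = 0.00206) and 4.65-fold below 0.37 µM (adjusted p = 0.0232). The step down was not called without replicate 4 of 1.11 µM, the lowest well (log2 -1.92, adjusted p = 0.0786, in a range of 0.00332 to 0.0786). The call at 0.014 µM was lost against the row-matched DMSO wells or against 0.0005 µM (adjusted p = 1.0 in both), and without replicate 1 (log2 1.98, adjusted p = 0.142) or replicate 2 (log2 2.13, adjusted p = 0.0517), in a range of 0.00219 to 1.0. That at 1.11 µM was lost with the row-matched DMSO wells (log2 1.68, adjusted p = 0.122, in a range of 0.00122 to 0.141). By mean the order was 0.37, 0.12, 0.04, 0.014, 1.11, 0.002, 0.005 and 10 µM, DMSO, 0.0005 and 3.33 µM. Only the wells of 0.04 and 0.014 µM separated without overlap among the neighbours above 3.33 µM, and their difference was not called (3.05-fold, adjusted p = 1.0).

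SLC3A2 is the heavy chain that carries SLC7A11 and other light chains to the cell surface (ENSG00000168003, chr11:62856102-62888875, plus strand). DMSO wells ran from 17.4 through 35.8 to 73.1 CPM, and at 0.014 µM the wells held 30.8, 83.0, 38.9 and 43.8 CPM, which was not called (log2 0.32, SE 0.27, adjusted p = 1.0). At 0.04 µM the wells held 79.4, 82.9, 91.6 and 103 CPM and at 0.12 µM 105, 93.3, 120 and 95.7 CPM, all above DMSO and overlapping each other. At 0.37 µM they held 444, 577, 456 and 442 CPM and at 1.11 µM 503, 457, 340 and 302 CPM. The last 2 doses overlapped each other and lay far above all lower ones.

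SLC3A2 rose 2.27-fold at 0.04 µM (adjusted p = 0.00284), 2.63-fold at 0.12 µM (adjusted p = 5.24e-05), 12.2-fold at 0.37 µM (log2 3.61, SE 0.21, adjusted p = 2.96e-24) and 10.2-fold at 1.11 µM (log2 3.35, SE 0.22, adjusted p = 8.83e-22). The step from 0.12 to 0.37 µM was 4.64-fold (adjusted p = 1.78e-05), and that from 0.37 to 1.11 µM was not called (log2 -0.26, SE 0.37, adjusted p = 0.647). The calls at 0.04 and 0.12 µM were lost against the row-matched DMSO wells (log2 1.51 and 1.72, adjusted p = 0.422 and 0.0690) and against 0.0005 µM (log2 1.17 and 1.38, adjusted p = 0.433 and 0.0610). Over the 14 settings the adjusted p ran from 4.48e-05 to 0.884 and from 2.34e-07 to 0.210 at these doses. The order by mean was 0.37, 1.11, 3.33, 0.12, 0.04, 0.005, 0.014 and 0.0005 µM, DMSO, 0.002 and 10 µM. Apart from 0.04 against 0.005 µM (79.4 to 103 against 46.0 to 67.8 CPM) and 1.11 against 3.33 µM (302 to 503 against 0 to 219 CPM), neighbours above 10 µM overlapped.

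Both importer subunits were called higher from 0.04 to 1.11 µM, and only SLC7A11 at 0.014 µM, so the sizes of their changes were compared. Within wells, log2 CPM of SLC7A11 minus that of SLC3A2 averaged -2.90 ± 1.34 in DMSO (SD, n = 32). From 0.014 to 1.11 µM in order of dose it averaged -0.59 ± 0.92, 0.09 ± 0.71, 0.24 ± 0.24, -1.89 ± 0.42 and -4.0 ± 0.86 (SD, n = 4 each). SLC7A11 gained on SLC3A2 by 2.31 at 0.014 µM (adjusted p = 0.00667), 2.99 at 0.04 µM (adjusted p = 0.000891) and 3.14 at 0.12 µM (adjusted p = 0.000764; exact permutation tests). At 0.37 µM the difference of 1.01 and at 1.11 µM that of -1.10 did not pass (adjusted p = 0.158 and 0.140, exact permutation tests), which does not show that the subunits changed alike. With the 4 row-matched DMSO wells, the 3 differences that passed were 2.05, 2.73 and 2.87, with an adjusted p of 0.171 each by the same exact test. Those at 0.04 and 0.12 µM had the smallest unadjusted p that 70 splits allow (0.0286), so no conclusion is drawn from the adjusted p.

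**Figure D3:**
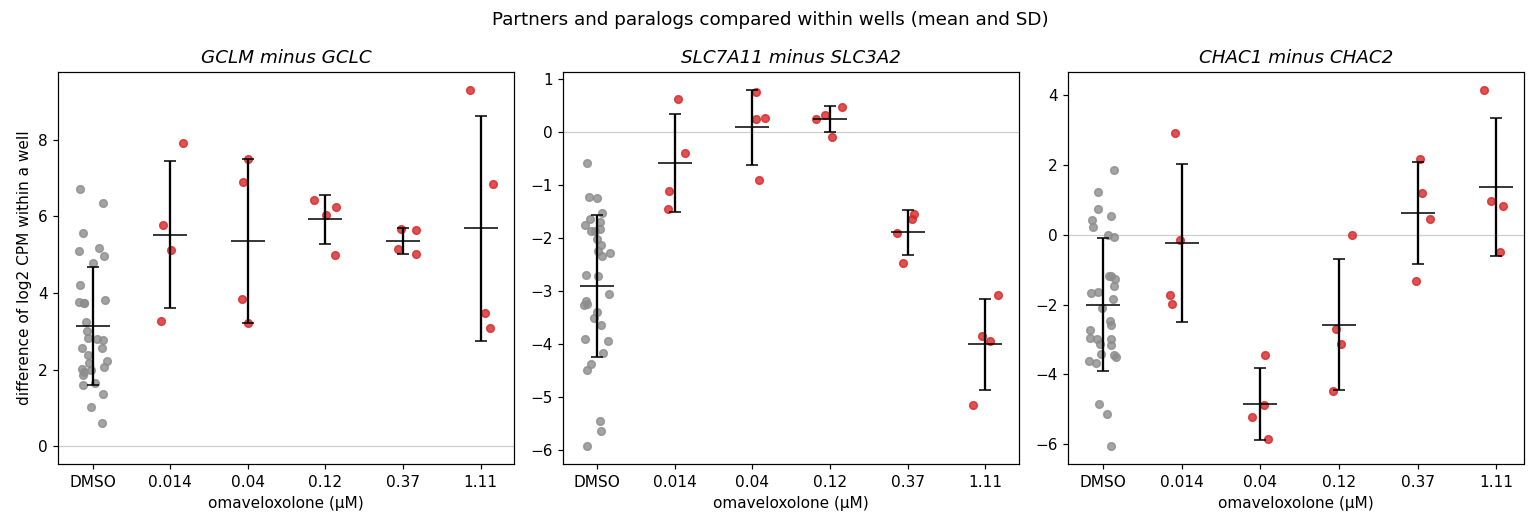
Difference of log2 CPM (prior count 2) between 2 genes in the same well, for GCLM minus GCLC, SLC7A11 minus SLC3A2 and CHAC1 minus CHAC2, in 32 DMSO wells (grey) and 4 wells at each of 5 doses (red), with mean and SD. SLC7A11 minus SLC3A2 climbs from a mean of -2.90 in DMSO to 0.24 at 0.12 µM and falls to -4.0 at 1.11 µM, while GCLM minus GCLC lies between 5.37 and 5.92 at all 5 doses.

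CHAC1 cleaves glutathione to cysteinylglycine and 5-oxoproline and is strongly induced in amino acid and unfolded protein stress (ENSG00000128965, chr15:40952962-40956519, plus strand). It was nearly absent in DMSO, from 0 through 0.527 to 4.06 CPM, with 6 of 32 wells at 0 counts and 202 counts in all. At 0.005, 0.04 and 0.12 µM it had 3, 2 and 1 counts over 4 wells. The ratios to DMSO were 0.118 (95% exact counting interval 0.0243 to 0.344), 0.0820 (0.00993 to 0.296) and 0.0363 (0.000920 to 0.202). These intervals cover counting error only and take each count as independent. None of these was called by edgeR (adjusted p = 1.0, 0.444 and 0.138), while the DESeq2 Wald test called 0.12 µM lower (adjusted p = 0.0216). At 0.014 µM, between these doses, the wells held 0.881, 1.70, 0.807 and 7.64 CPM, so the low levels followed no order of dose.

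At 0.37 µM the CHAC1 wells held 8.81, 5.08, 5.81 and 4.20 CPM, from 41 to 77 counts each, all above every DMSO well. At 1.11 µM they held 21.7, 14.9, 25.2 and 78.8 CPM, from 20 to 116 counts, above all wells at 0.37 µM. CHAC1 rose 6.01-fold at 0.37 µM (log2 2.59, SE 0.75, adjusted p = 0.00603) and 35.3-fold at 1.11 µM (log2 5.14, SE 0.68, adjusted p = 1.08e-08), and without replicate 4, its highest well, the latter log2 change was 4.36 (adjusted p = 3.9e-05, in a range of 4.93e-09 to 0.0330). The step from 0.12 to 0.37 µM was called (adjusted p = 0.00413), and that from 0.37 to 1.11 µM was not (log2 2.55, SE 1.29, adjusted p = 0.141). At 0.37 µM CHAC1 was no longer called against the row-matched DMSO wells (log2 1.64, adjusted p = 0.435) and against 0.0005 µM (log2 2.60, adjusted p = 0.183), in a range of 0.00164 to 0.435. By mean 1.11 µM came highest, then 0.37 and 0.014 µM, DMSO, 0.0005, 0.002, 0.005, 0.04 and 0.12 µM, with overlap between all neighbours below 1.11 µM, and at 3.33 and 10 µM it had no counts.

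CHAC2, a paralog with slower activity on glutathione (ENSG00000143942, chr2:53767792-53775196, plus strand), was not called from 0.0005 to 3.33 µM. Its DMSO wells ran from 0 through 3.90 to 23.5 CPM, with 2 of 32 at 0 counts. At 0.37 µM it held 3.66, 3.65, 1.02 and 10.9 CPM (log2 -0.24, SE 0.88, adjusted p = 0.877) and at 1.11 µM 10.8, 8.20, 35.3 and 4.08 CPM (log2 1.35, SE 0.80, adjusted p = 0.223). All but the 1.11 µM well of 35.3 CPM lay within the DMSO range. Neighbours in its order of means overlapped up to 1.11 µM.

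Within wells, log2 CPM of CHAC1 minus that of CHAC2 averaged -2.01 ± 1.91 in DMSO (SD, n = 32), 0.62 ± 1.47 at 0.37 µM and 1.37 ± 1.97 at 1.11 µM (SD, n = 4 each). CHAC1 gained on CHAC2 by 2.63 at 0.37 µM (adjusted p = 0.0171) and by 3.38 at 1.11 µM (adjusted p = 0.00667), in exact permutation tests. At 0.04 µM the difference was the other way, -2.84 (adjusted p = 0.0124, exact permutation test), with 2 counts of CHAC1 in all. At 0.014 and 0.12 µM the differences of 1.77 and -0.57 did not pass (adjusted p = 0.119 and 0.584, exact permutation tests). The difference at 0.37 µM did not pass without replicate 1 of that dose (2.44, adjusted p = 0.0591) or replicate 3 (2.11, adjusted p = 0.104). With the row-matched DMSO wells none of the 3 that had passed did so (adjusted p = 0.171 to 0.214, exact permutation tests). With 70 splits these tests too could hardly pass.

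GGCT releases 5-oxoproline from gamma-glutamyl amino acids (ENSG00000006625, chr7:30496621-30504844, minus strand), and its rise at 0.37 µM was the smallest of the 7 called there. DMSO wells ran from 11.8 through 27.4 to 55.7 CPM. At 0.37 µM the wells held 72.9, 30.8, 35.8 and 52.1 CPM and at 1.11 µM 58.8, 64.1, 31.1 and 24.5 CPM, so that both doses overlapped DMSO. The fold was 1.69 at 0.37 µM (log2 0.76, SE 0.24, adjusted p = 0.0118) and 1.58 at 1.11 µM (log2 0.66, SE 0.25, adjusted p = 0.0473). The first call was lost against the row-matched DMSO wells (adjusted p = 0.368), against 0.0005 µM (0.202 as adjusted p), without replicate 1 (log2 0.48, adjusted p = 0.222) and without replicate 4 (log2 0.72, adjusted p = 0.0527), in a range of 0.000173 to 0.479. The second was lost under 7 of 14 settings, among them leaving out replicate 1 (log2 0.50, adjusted p = 0.233) or replicate 2 (log2 0.42, adjusted p = 0.312), in a range of 0.0195 to 0.579. Neighbours in its order of means, 0.37, 1.11, 0.04, 0.12, 0.014, 0.002 and 0.0005 µM, DMSO, and 0.005 µM, all overlapped.

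At 3.33 and 10 µM too few counts remained for most of these genes. Over 4 wells the 10 genes had from 0 to 115 counts each at 3.33 µM, and 1 rose and 2 fell, where 7.35% and 32.9% of all genes did (40.2% called). SLC3A2 was the one that rose, with 0, 209, 219 and 33.5 CPM in the wells (2.88-fold, adjusted p = 0.000210), and this call was lost without replicate 3 (log2 0.96, adjusted p = 0.0653, in a range of 1.54e-06 to 0.0653). GGCT had 0 counts at 3.33 µM, at least 6.78-fold lower than in DMSO (adjusted p = 1.42e-07), taking 3 counts over the group as the floor. GSR fell to 10 counts, 17.2, 0, 16.9 and 19.2 CPM (log2 -1.06, adjusted p = 0.0468), and lost the call under 9 of 13 settings, including the omission of any of its 4 wells (adjusted p = 0.0515 to 0.237). GLRX was not called, with 0, 307, 185 and 168 CPM (adjusted p = 0.501), and passed as higher without replicate 1 (log2 0.62, adjusted p = 0.00659). Without that same replicate GCLM and GSS passed as lower (log2 -1.42 and -3.80, adjusted p = 0.0259 and 0.00142). SLC7A11 had 0 counts, at least 1.74-fold lower, and was not called (adjusted p = 0.149), though the DESeq2 Wald test called it lower (adjusted p = 0.0402). GCLC had 2 counts, a ratio to DMSO of 0.240 (95% exact counting interval 0.0291 to 0.868).

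At 10 µM 1 member rose and 5 fell, where 3.36% and 31.8% of all genes did (35.2% called, 479 and 4538 genes, or 936 and 2022 with DESeq2 size factors). GLRX was at least 11.8-fold lower (adjusted p = 1.68e-08), SLC3A2 at least 3.38-fold (adjusted p = 0.00616), GGCT at least 2.43-fold (adjusted p = 0.000958) and GSR at least 2.42-fold (adjusted p = 0.000989), each with 0 counts in 4 wells. GCLM fell to 4 counts, all in replicate 3 (adjusted p = 0.0197), and lost the call under 6 of 13 settings, including the omission of replicate 1, 2 or 4 (log2 -1.85, -1.76 and -1.83, adjusted p = 0.0880, 0.110 and 0.0917). The gene that rose was CHAC2, whose 22 counts all lay in replicate 4, a level of 347 CPM there (adjusted p = 0.000335), and without that well it had none. The call was also lost against the 0.0005 µM wells (log2 2.94, adjusted p = 0.0727), and that of SLC3A2 with DESeq2 size factors (adjusted p = 0.0627). GSS likewise had all of its 10 counts in replicate 1, and SLC7A11 its 3 counts in replicate 4, a ratio to DMSO of 1.60 (95% exact counting interval 0.330 to 4.67).

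DMSO wells lay in plate columns 2 and 23, and treated wells between them. In rows K and L the doses stood in order, from 10 µM in columns 3 and 13 to 0.0005 µM in columns 12 and 22. Dose and column thus ran together among treated wells, and a comparison of DMSO columns cannot separate them. Of the 9 members that passed the filter among DMSO wells, 0 differed between the columns by edgeR or by DESeq2, where 6.14% of 11259 genes did by edgeR (3.30% higher and 2.83% lower in column 23), and 2 had an unadjusted p under 0.05. These were GLRX, at 152 ± 28.1 CPM in column 2 and 131 ± 23.9 CPM in column 23, and SLC3A2, at 34.4 ± 11.6 and 44.0 ± 13.0 CPM (SD, n = 16 each). SLC7A11 held 4.90 ± 4.38 and 9.02 ± 5.95 CPM (log2 0.87, SE 0.46, adjusted p = 0.337). CHAC1 was not tested here. For GLRX, SLC3A2 and SLC7A11 the differences between columns 2 and 23 were smaller than their changes at 0.37 µM. At low doses this did not hold throughout. The SLC3A2 column difference (log2 0.34) was about as large as its uncalled change at 0.014 µM (0.32). That of SLC7A11 was about as large as its uncalled changes at 0.002 and 0.005 µM (0.87 and 0.82). An effect of the columns between them was not tested.

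Other genes of the pathway were counted from lists chosen with the results known, beside 1.31% higher and 1.02% lower of all genes at 0.12 µM, 11.2% and 13.6% at 0.37 µM, and 9.76% and 13.2% at 1.11 µM. Of 18 genes for the supply of cysteine and glutamate, 3 rose and 0 fell at 0.12 µM, 4 and 1 at 0.37 µM, and 8 and 1 at 1.11 µM, with a median log2 change of -0.04, 0.57 and 0.74. SLC7A5, which pairs with SLC3A2 to import large neutral amino acids, rose from 5.31 ± 4.44 CPM in DMSO to 18.0 ± 6.57 at 0.12 µM (3.37-fold, adjusted p = 0.0363) and 65.2 ± 14.0 at 0.37 µM (12.2-fold, adjusted p = 2.86e-10). The glutamine transporter SLC1A5 rose 2.50-fold at 0.12 µM (adjusted p = 1.02e-07). The glutamate transporter SLC1A3 fell 6.43-fold at 0.37 µM (adjusted p = 0.0326). The SDs are over 32 DMSO wells and 4 wells of a dose here and below.

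Of 14 genes of the gamma-glutamyl cycle and glutathione transport, 11 were tested, and 1 rose and 1 fell at 0.12 and at 0.37 µM, while 2 rose and 0 fell at 1.11 µM (medians -0.18, -0.47 and 0.17). ABCC1, an exporter of glutathione and its conjugates, rose from 14.2 ± 6.73 to 44.6 ± 8.11 CPM at 0.12 µM (3.14-fold, adjusted p = 0.00237), and the dipeptidase CNDP2, which splits cysteinylglycine, rose 1.94-fold at 0.37 µM (adjusted p = 0.00284). The aminopeptidase ANPEP fell 1.79-fold at 0.12 µM (adjusted p = 0.00798) and 3.54-fold at 0.37 µM (adjusted p = 3.08e-10). Both directions occurred among the 25 enzymes that use glutathione, where 5 rose and 2 fell at 0.12 µM, 7 and 6 at 0.37 µM, and 0 and 9 at 1.11 µM (medians 0.03, -0.13 and -0.48). At 0.12 µM GSTM5 and GSTM3, transferases whose near-identical paralogs can share reads, rose 2.43-fold and 2.23-fold (adjusted p = 0.000595 and 0.000115). At 0.37 µM HAGH, which hydrolyses glutathione thioesters of the glyoxalase pathway, rose 3.64-fold (adjusted p = 1.32e-11), and GLRX3, a glutaredoxin of iron-sulfur handling, 2.96-fold (adjusted p = 4.52e-08). The prostaglandin E synthase PTGES fell 4.07-fold at 0.12 µM and 7.94-fold at 0.37 µM, from 57.9 ± 9.63 to 7.27 ± 3.43 CPM (adjusted p = 1.05e-05 and 1.97e-10). The secreted peroxidase GPX3 fell 2.52-fold at 0.12 µM (adjusted p = 0.0213) and ESD, an S-formylglutathione hydrolase, 3.49-fold at 0.37 µM (adjusted p = 0.00431).

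Of 14 regulators of the pathway, 1 rose at 0.12 µM, 7 at 0.37 µM and 6 at 1.11 µM, and 0, 0 and 1 fell (medians 0.09, 0.69 and 0.13). MAFG, a small partner protein of NRF2, rose from 35.5 ± 10.9 to 86.6 ± 14.8 CPM at 0.12 µM (2.44-fold, adjusted p = 0.000726). At 0.37 µM ATF3 rose 5.91-fold, from 4.28 ± 3.32 to 25.4 ± 17.2 CPM (adjusted p = 0.000124), and TRIB3, a pseudokinase induced by ATF4 and CHOP, 5.43-fold (adjusted p = 1.87e-07). TRIB3 averaged 37.6 ± 5.27 CPM at 0.37 µM and 16.8 ± 14.4 CPM at 1.11 µM. DDIT3, which encodes CHOP and like ATF4 was picked for mention after its values were seen, averaged 29.0 ± 9.80 CPM in DMSO. At 0.12, 0.37 and 1.11 µM it averaged 16.9 ± 2.41, 84.3 ± 29.1 and 631 ± 23.4 CPM. ATF3 also had its highest mean at 1.11 µM, 104 ± 24.1 CPM (adjusted p = 1.01e-11). ATF4 had its highest mean at 0.37 µM instead, with 294 ± 18.3 CPM beside 169.7 ± 18.4 CPM in DMSO (adjusted p = 1.19e-06), and averaged 182 ± 29.3 CPM at 1.11 µM (adjusted p = 0.640).

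The courses of the 10 genes over the 9 group means from DMSO to 1.11 µM were compared by Pearson's r of mean log2 CPM, as a description of means that share wells, depth and scaling. GCLM was closest to GSR (0.96), SLC7A11 (0.94) and GLRX (0.93) among the members, with 0.65 for its partner GCLC and 0.02 for CHAC1. SLC7A11 had 0.64 with its partner SLC3A2. CHAC1 was closest to SLC3A2 (0.71). Among 7970 genes of at least 10 CPM, the courses most like that of GCLM were those of the heme transporter SLC48A1 (0.99), MARCHF4 (0.98) and the heme-binding HEBP1 (0.98). Those most like SLC7A11 were MTCH2 (0.97), SLC1A5 (0.96) and UBQLN4 (0.96), and those most like CHAC1, among 7971 genes, were TSPAN9 (0.96), GRB10 (0.95) and HSPA4L (0.95).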

How the data were processed

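The deposited table holds raw counts per gene and well, which the authors made with kallisto and bustools on GRCh38, per the submitters' processing notes; versions are not given in the sources used here, nor whether molecular barcodes were collapsed, so a count may be a read. Intervals and floors take each count as independent and cover counting error only. Repeated reads of 1 molecule would make them too narrow. The labels put 32 wells in DMSO and 4 at each dose, while the protocol names 16 DMSO wells per plate. Ensembl IDs were matched to GENCODE 29, which held 23077 of 23169. 1 processed pseudogene row was left out of totals and fits.

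Counts of all 72 wells were fitted with edgeR 4.0.16 (R 4.3.3): scaling by TMM, genes kept by filterByExpr at min.count 10, a robust quasi-likelihood fit with 1 mean per group, Benjamini-Hochberg adjustment within each comparison at 0.05. The SE is the log2 change divided by the root of F. Levels are TMM-scaled CPM. Within-well differences used log2 CPM with a prior count of 2 and exact permutation tests (Python 3.11.15, SciPy 1.17.1). Fits were tested on simulated data. Alternatives were DESeq2 1.42.0 and its size factors, other filters, references, covariates and left-out wells. The one with the pseudogene row left in was chosen after seeing the data.

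The 10 members, the gene lists and the tests were chosen with earlier results of these data known. Of each list, the text names up to 2 called genes with the largest rise and up to 2 with the largest fall at 0.12 and at 0.37 µM, and for GCLM, SLC7A11 and CHAC1 the 3 genes of at least 10 CPM with the highest Pearson's r over 9 group means. 1 gene that this rule names is not reported here.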

Additional observations from a re-analysis of the deposited data

Results flagged for a closer look

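In 6 of 76 groups of 4 wells with a mean of at least 10 counts, 1 well stood far from the other 3. Its gap to the nearest well was 0.835 to 0.896 of the range of the 4. Chance gives about 1 in 20 such groups where values are normally distributed. CPM need not be, so the rate to compare with is not known here. At 0.014 µM GCLC had a well at 20.2 CPM where the others held 0.510 to 3.53 CPM. GSR had a well at 62.3 CPM at that dose, the others lying at 39.1 to 41.9 CPM, and a low well of 56.5 CPM at 0.04 µM beside 84.0 to 89.4 CPM. SLC3A2 at 0.37 µM had a well at 577 CPM and 3 at 442 to 456 CPM. CHAC1 had a well at 7.64 CPM at 0.014 µM beside 0.807 to 1.70 CPM, and at 1.11 µM a well at 78.8 CPM beside 14.9 to 25.2 CPM.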

How the results depend on the processing

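Of 24 member calls from 0.014 to 1.11 µM, 12 held under all 14 alternatives of their comparison and 12 were lost under at least 1. The fit with a replicate block used only the wells numbered 1 to 4 of each group, so 4 of the 32 DMSO wells. These DMSO wells lay in plate rows A and B, while the treated wells lay in rows K and L. The effect of the block cannot be told apart from that of fewer wells or of other plate rows. In the fit with the block, members called went from 2 to 0 at 0.014 µM, from 5 to 2 at 0.04 µM, from 5 to 3 at 0.12 µM, from 7 to 6 at 0.37 µM and from 5 to 2 at 1.11 µM. The 4 row-matched DMSO wells alone gave 0, 2, 3, 5 and 2 at these doses, also with fewer wells by construction. Of the 11 within-well differences that had passed, 0 did so with these wells, where 70 splits left the adjusted tests almost no room to pass. The 0.0005 µM wells as reference gave 0 at 0.014 µM, 5 at 0.37 µM and 3 at 1.11 µM. The main fit includes the shallow 3.33 and 10 µM wells. Without them, calls over all genes went from 31 to 56 at 0.014 µM, 113 to 242 at 0.04 µM and 332 to 707 at 0.12 µM. At 0.37 and 1.11 µM they went from 3533 to 4285 and from 3277 to 4096. The shares of all genes called given above thus depend on these wells. Replicate numbers did not follow plate position alike at all doses. Odd numbers lay in the lower plate column of a group in DMSO and below 0.014 µM, and in the higher column from 0.014 µM on. Over 2989 genes, the 40 same-numbered deviations correlated at -0.266 to 0.341 (median -0.0155), with 5 over 0.1 and 6 of 40 highest with their own number. Most were positive below 0.014 µM and negative from 0.014 to 0.12 µM, so the median mixes opposite signs. Whether plate side gave these signs was not tested. Fitting only the wells of a comparison moved the calls from 0 to 1 between 0.014 and 0.04 µM, from 0 to 1 between 0.04 and 0.12 µM and from 3 to 6 between 0.12 and 0.37 µM, where the DESeq2 Wald test gave 5. Leaving out 1 well gave 0 to 2 members at 0.014 µM, 6 to 7 at 0.37 µM, 3 to 5 at 1.11 µM, 1 to 5 at 3.33 µM, 4 to 6 at 10 µM, 3 to 4 between 0.37 and 1.11 µM, and 8 to 11 within-well differences. At 10 µM the sign turned for GSS without replicate 1 and for CHAC2 without replicate 4, the only wells with their counts, so that log2 changes ran from -10.21 to 1.07 and from -8.02 to 4.35 when 1 well was left out. Apart from the smaller number of wells, the cause was not tested. Depth limits the values at 3.33 and 10 µM, where a well held at most 208739 counts.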
